A study of Mus musculus with 2 samples.

Results

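A set of 10 genes whose products build or control cartilage was followed across 2 spatial transcriptomic sections of healing mouse femur, one from a Control and one from a Loaded mouse. The genes, out of 19465 in the deposited matrices, were the type II collagen gene *Col2a1*, the type IX collagen genes *Col9a1*, *Col9a2* and *Col9a3*, the type X collagen gene *Col10a1*, the proteoglycan gene *Acan*, its partner genes *Hapln1* and *Matn3*, the transcription factor gene *Sox9* and the lubricant gene *Prg4*. They were chosen by name, for what their products do in cartilage and not for their values, and all 10 had at least 1 UMI (unique molecular identifier, a tag that marks 1 captured probe molecule) in each section. Both mice were females of the BCR line, a bone cell reporter line in which CRISPR-Cas9 editing placed eGFP on *Ibsp* and mCherry on *Acp5*. Both had a mid-diaphyseal osteotomy of the femur, stabilised with an external fixator, at 12 weeks of age, and both were 17 weeks old at the end. From the time the gap had bridged, the Loaded mouse received cyclic mechanical loading through the fixator and the Control mouse a sham procedure at 0 N. The background strain of the line is not given in the sources used here. With 1 section per group, a difference between Control and Loaded cannot be told apart from a difference between 2 mice, 2 femurs or 2 planes of section, so no test was made, and the 95% intervals below (exact Poisson for counts, exact binomial for shares, conditional binomial for ratios) cover counting error only.

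Cartilage matrix is a network of type II collagen fibrils, decorated with type IX collagen, that holds aggrecan, the product of *Acan*. In a fracture that heals through a callus, chondrocytes lay down this matrix first, then enlarge, switch to type X collagen and give way to bone. In a resting adult joint the same matrix persists as articular and meniscal cartilage, and lubricin, the product of *Prg4*, coats its surface and the synovium. *Sox9* is the transcription factor that switches on *Col2a1*, *Acan* and the type IX collagen genes, and it binds DNA at sites with an ACAAAG or ACAATG core.

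Promoter sequences are shown because the text turns on *Col9a1* and *Acan*, which each had a local maximum apart from the main *Col2a1* one, and on *Col10a1*, which had no UMI in bone. Each runs from 250 bases before to 50 bases after a transcript start in RefSeq, 5′ to 3′ on the gene's strand (the plus strand for all 3), and was taken from RefSeq on GRCm38.p6. Capitals mark a match to ACAAAG or ACAATG on either strand (read as CTTTGT or CATTGT on the other strand). The promoters are *Col9a1* at chr1:24177360-24177659, *Acan* at chr7:79052976-79053275 and *Col10a1* at chr10:34389731-34390030. The *Acan* start in RefSeq lies upstream of the one in the GENCODE annotation used for the gene coordinates below.
Col9a1: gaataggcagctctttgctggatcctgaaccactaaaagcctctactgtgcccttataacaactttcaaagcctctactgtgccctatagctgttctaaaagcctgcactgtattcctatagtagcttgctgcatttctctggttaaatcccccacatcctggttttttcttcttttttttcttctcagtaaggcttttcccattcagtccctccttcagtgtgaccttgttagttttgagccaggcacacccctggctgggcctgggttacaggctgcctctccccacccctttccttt
Acan: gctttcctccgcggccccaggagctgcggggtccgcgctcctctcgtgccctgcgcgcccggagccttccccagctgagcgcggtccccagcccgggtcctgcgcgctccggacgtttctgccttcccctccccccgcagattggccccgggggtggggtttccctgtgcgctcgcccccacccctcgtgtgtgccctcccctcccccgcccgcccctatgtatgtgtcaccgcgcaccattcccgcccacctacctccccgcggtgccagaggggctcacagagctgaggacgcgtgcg
Col10a1: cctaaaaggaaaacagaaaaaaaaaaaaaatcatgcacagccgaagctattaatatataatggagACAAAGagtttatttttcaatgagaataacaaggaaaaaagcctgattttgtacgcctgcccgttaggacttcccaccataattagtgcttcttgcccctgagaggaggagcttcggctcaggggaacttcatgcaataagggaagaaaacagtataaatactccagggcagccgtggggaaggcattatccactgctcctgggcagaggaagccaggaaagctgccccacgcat
Of the 7 promoter entries found for 6 of the 10 genes (*Col9a1* has 2), 1 held a match, that of *Col10a1*, against 28.6% of all 32851 promoters of this length. A match is a stretch of letters and not a measured binding site. *Col2a1*, *Col9a3*, *Sox9* and *Prg4* were not among the promoter entries.

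The Control section held 1898 spots on a grid of 100 µm pitch with a median of 2289 UMIs, 8984212 UMIs in all, and the Loaded section held 1431 spots with a median of 2638, 4908807 UMIs in all. The study lists the barcodes of the spots it took as bone. These were 131 Control spots with 557259 UMIs (median 3478) and 146 Loaded spots with 409020 UMIs (median 2621), and they form a pair of walls 2.89 mm long in Control and 2.54 mm long in Loaded. Spots in which 22 skeletal muscle genes made up at least 10% of UMIs are called muscle spots, and there were 1063 of them in Control and 703 in Loaded. The same muscle genes made up 17.0% of UMIs in the Control bone spots and 8.92% in the Loaded ones, so the listed bone spots also hold RNA of the neighbouring tissue. The sections did not cover the same ground, as the farthest spot lay 4.53 mm from the nearest bone spot in Control and 2.51 mm in Loaded. Levels are given as UMIs per 10000 UMIs of the same spots, and they are compared between places or sections for a single gene only, since each gene was read by its own probes.

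Cartilage collagen RNA was abundant in the Control section and sparse in the Loaded section. *Col2a1* (GRCm38, chr15:97975602-98004695, minus strand) had 2417 UMIs in 559 Control spots, with 201 in the highest spot, and 121 UMIs in 103 Loaded spots, with 4 in the highest. Its level over the whole section was 2.69 per 10000 UMIs (2.58 to 2.80) in Control and 0.246 (0.205 to 0.295) in Loaded. *Col9a1* (chr1:24177610-24252684, plus strand) had 1021 UMIs in Control, up to 53 in a spot, and 16 in Loaded, each in a spot of its own. The other type IX chains also had fewer UMIs in Loaded, with 42 UMIs of *Col9a2* (chr4:121039385-121055322) and 73 of *Col9a3* (chr2:180597790-180622189) in Control against 12 and 16 in Loaded. *Col10a1* (chr10:34389981-34397085), the mark of hypertrophic chondrocytes, was near the limit of detection in both sections, with 8 UMIs in Control and 6 in Loaded.

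The proteoglycan genes, the transcription factor and the lubricant all had fewer UMIs in the Loaded section, which was also the smaller one. *Acan* (chr7:79053483-79115099), the core protein of the main cartilage proteoglycan, had 104 UMIs in Control and 26 in Loaded. *Hapln1* (chr13:89539796-89611652), the link protein that ties aggrecan to hyaluronan, had 28 and 7. *Matn3* (chr12:8947929-8972028), a matrilin that bridges collagen and proteoglycan, had 28 and 3. *Sox9* (chr11:112782224-112787760) was spread widely, with 83 UMIs in 75 Control spots and 48 UMIs in 45 Loaded spots. *Prg4* (chr1:150449412-150466165, minus strand) had 89 UMIs in 62 Control spots, up to 10 in a spot, and 33 UMIs in Loaded, never more than 1 in a spot.

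As a ratio of Loaded over Control over the whole section, scaled by total UMIs, *Col9a1* stood at -5.12 on the log2 scale (95% interval -5.94 to -4.42) and *Col2a1* at -3.45 (-3.72 to -3.18). *Matn3* was at -2.35 (-4.71 to -0.66), *Col9a3* at -1.32 (-2.20 to -0.52) and *Acan* at -1.13 (-1.81 to -0.50). For the other 5 genes the interval reached or passed 0, among them *Sox9* at 0.08 (-0.46 to 0.61) and *Prg4* at -0.56 (-1.18 to 0.03). In Loaded, 6 of the 10 were 2-fold or more lower, against a background of 2.23% of the 16651 genes with at least 10 UMIs, and none of the 10 was 2-fold or more higher, against 15.1%. Their median log2 ratio was -1.13, against a median of 0.41 over all those genes. The 2 sections were not cut over the same ground, and where the Control UMIs lay is described next.

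Most of the Control *Col2a1* UMIs came from a small area far from the listed bone. Spots with at least 5 *Col2a1* UMIs and at least 10 per 10000 are called *Col2a1*-rich. There were 67 in Control and 0 in Loaded. Of the 67, 50 adjoined one another in a patch 1.00 mm wide, 2.78 to 3.54 mm from the nearest bone spot, and the other 17 lay in 12 smaller groups of which 10 were single spots. The 4 spots with the most *Col2a1* had 201, 197, 168 and 129 UMIs, which was between 9.45% and 18.2% of all UMIs in the spot, and they lay within 0.173 mm of the highest one. No Loaded spot lay as far from bone as this patch, so the matching ground was not sampled in the Loaded section. The map of *Col2a1* over both sections shows the patch.

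**Figure D1:**
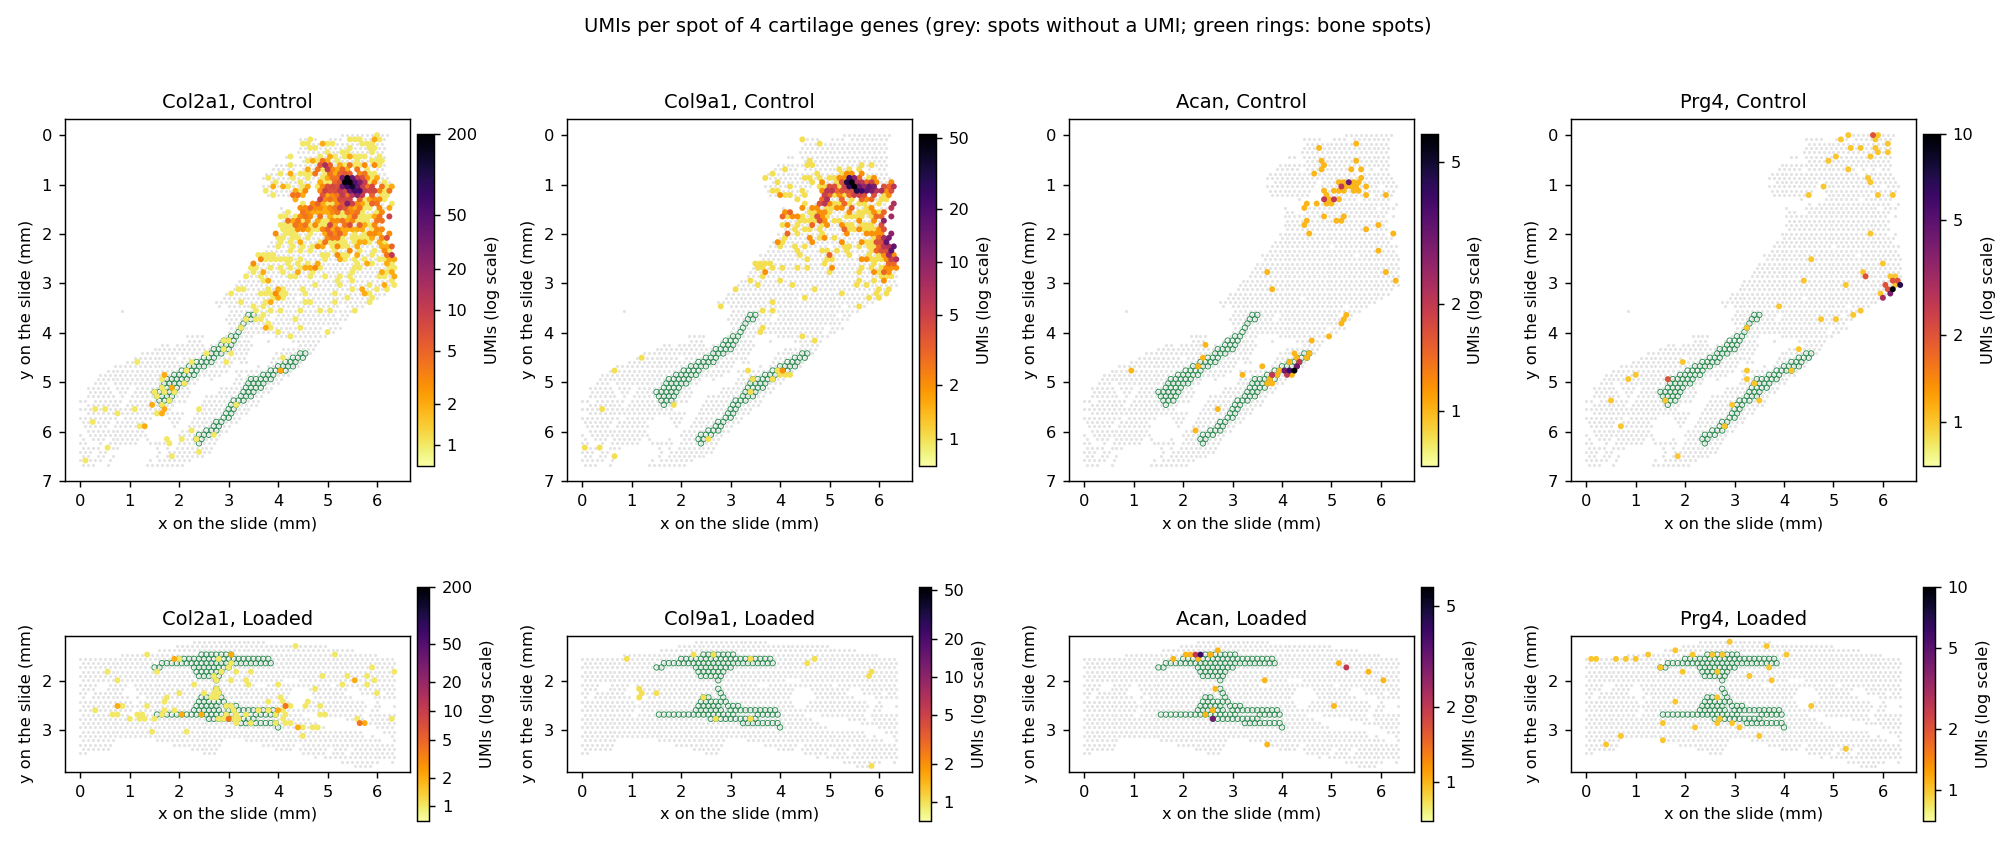
Position of every spot on the slide (axes in mm) in the Control (top) and Loaded (bottom) sections for *Col2a1*, *Col9a1*, *Acan* and *Prg4*, coloured by UMIs of the gene in the spot on a log scale, with spots without a UMI in grey and the study's listed bone spots ringed in green. The Control *Col2a1* patch of 50 spots lies 2.78 to 3.54 mm from bone, and the Loaded section holds no *Col2a1*-rich spot.

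The *Col2a1*-rich spots held 65.6% of Control *Col2a1* UMIs but 1.17% of all Control UMIs. The rule used *Col2a1* alone, so the other 9 genes in the same spots are a separate measure. *Col9a1* stood at 44.4 per 10000 UMIs in these spots and at 0.0743 in the 1050 spots that lay outside bone and over 1 mm away, a ratio of 598 (441 to 828). *Hapln1* was 295 times higher (83.4 to 1589), *Col9a3* 150 times (72.5 to 334) and *Col9a2* 125 times (53.7 to 313). *Matn3* was 88.5 times higher (33.3 to 250) and *Acan* 54.3 times (29.4 to 99.6). *Sox9*, at 11.1 times (4.77 to 22.8), and *Prg4*, at 11.8 times (2.93 to 35.2), had lower ratios, and *Col10a1* had 3 UMIs in the rich spots and 2 in the distant ones. The rich spots were shallow, with a median of 1059 UMIs, and in this contrast the median ratio over 12872 genes was 1.95 and 48.9% of genes were 2-fold or more higher.

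The genes also shared spots there. In the patch, 48 of 50 spots had UMIs of at least 2 of the 10 genes and 19 had at least 4, with 8 in the fullest spot. The rule gave each of these spots *Col2a1*, so 1 of the genes was set in advance. Over the whole Control section, patch included, 314 of 1898 spots had at least 2. Over the 1898 Control spots, the correlation of each gene with the sum of the other 9 (Pearson, log2 of 1 plus UMIs per 10000, 1 library) was 0.60 for *Col9a1*, 0.58 for *Col2a1*, 0.14 for *Sox9* and 0.07 for *Prg4*. In the Loaded section the 10 correlations lay between -0.04 and 0.03, and 18 of 1431 spots had UMIs of at least 2 of the genes.

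Among other cartilage matrix genes, 12 of 18 on the list had at least 10 UMIs in the 2 places, 11 of the 12 were 2-fold or more higher in the rich spots, and their median ratio was 30.3. *Comp*, which encodes a pentameric matrix glycoprotein of cartilage and tendon, was 29.6 times higher, *Col11a2*, a minor fibril collagen, 46.9 times, and *Chad*, chondroadherin, 47.6 times, while *Cilp* was level at 0.989. Of the chondrocyte regulators 6 of 9 were counted as higher, with a median of 13.6. The hypertrophy and matrix breakdown genes had 5 of 7, with a median of 4.72, and the proteoglycan synthesis genes 7 of 9, with a median of 3.05. The joint surface and synovium genes had 6 of 8, with a median of 3.67. Each of these lists, save that of the other cartilage matrix genes, included at least 1 gene with 0 UMIs in the rich spots. Such genes were set to 3 UMIs there and counted as higher by that upper bound. The counts and medians of those lists may therefore be too high, and the medians of 13.6 and 3.05 were themselves such bounds. Neither they nor the share over all genes were recounted without such genes. Of the tendon and fibrous genes, none of them at 0 there, 7 of 8 were higher, with a median of 4.06. These counts stand beside the 48.9% of all genes that were 2-fold or more higher in these spots. RNA of other tissues was present in the patch as well. All 8 osteoblast genes were 2-fold or more higher, with a median of 12.9, *Bglap* (osteocalcin) at 26.0 times and *Col1a1* at 7.39 times, and the osteoblast list took 7.35% of the patch's UMIs. Of the 22 muscle genes 19 were 2-fold or more lower, with a median of 0.318, and they still took 8.37% of the patch's UMIs. What tissue the patch is cannot be told from these labels, which name the femur only.

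With distance from the highest *Col2a1* spot, the collagens fell away steeply. That spot was picked by *Col2a1* itself, so a fall of *Col2a1* from it follows from the choice. *Col2a1* stood at 523 per 10000 UMIs within 0.15 mm, at 10.4 between 0.5 and 0.75 mm, at 2.57 between 1 and 1.5 mm, and at 0.123 beyond 3 mm. *Acan* went from 5.14 within 0.15 mm to 0.0349, from 2 UMIs, between 1.5 and 2 mm. It stood at 0.0732, from 6 UMIs, between 2 and 3 mm, and at the same level beyond 3 mm, which takes in the bone. *Col9a1* did not follow the same course. It fell from 106 to 2.02 between 1 and 1.5 mm and stood at 2.38 (1.99 to 2.81) between 1.5 and 2 mm, where *Col2a1* was at 1.75 (1.42 to 2.12).

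**Figure D2:**
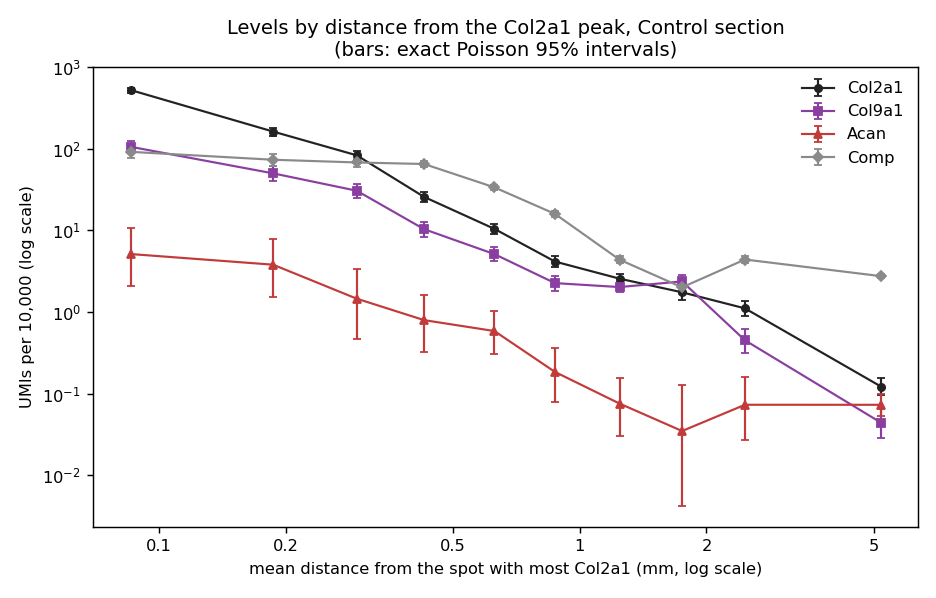
Levels of *Col2a1*, *Col9a1*, *Acan* and *Comp* (UMIs per 10000 UMIs, log axis) against mean distance in mm (log axis) of 10 rings of spots from the highest *Col2a1* spot in the Control section, with exact Poisson 95% intervals. *Col2a1*, whose fall follows from the choice of centre, goes from 523 to 0.123. *Col9a1* stays at 2.38 in the ring from 1.5 to 2 mm.

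The balance of the 2 collagens differed between places in the same section. For each *Col2a1* UMI there were 0.202 *Col9a1* UMIs (0.168 to 0.242) within 0.15 mm of the peak, 0.515 (0.433 to 0.612) between 0.5 and 1 mm, and 1.36 (1.04 to 1.78) between 1.5 and 2 mm. Between 1 and 1.5 mm there were 187 *Col9a1* and 237 *Col2a1* UMIs. Between 2 and 3 mm the ratio was 0.407 (0.270 to 0.602), so it was not high over all outer ground. In the Loaded section it was 0.132 (0.0732 to 0.224), from 16 and 121 UMIs. Spots over 1 mm from the peak with at least 4 *Col9a1* UMIs were then taken, a choice made after the maps were seen. High *Col9a1* in them follows from the choice, so the values are a description. Not all of these spots lay between 1.5 and 2 mm. Those that did had 16, 16, 8, 7, 7, 5, 4 and 4 of the 136 *Col9a1* UMIs in that ring. Beside these they had 5, 1, 4, 2, 2, 2, 3 and 0 of its 100 *Col2a1* UMIs. The high ratio of the ring thus came in part from these spots, and the ratio without them was not worked out.

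There were 21 such spots in Control and none in Loaded. They held 165 *Col9a1* and 56 *Col2a1* UMIs, read by different probes. In 20 of the 21 spots *Col9a1* had at least as many UMIs as *Col2a1*, which the choice by *Col9a1* favours. The 3 highest each had 16 *Col9a1* UMIs, beside 5, 1 and 1 of *Col2a1*. They lay 1.04 to 1.85 mm from the *Col2a1* peak, 2.55 to 3.5 mm from bone and within 0.4 mm of the edge of the capture grid. *Acan* and *Hapln1* had 1 UMI each there, and *Sox9* and *Prg4* had none. The osteoblast list took 9.87% of their UMIs and the muscle list 8.71%. These spots were shallow, with a median of 695 UMIs, and 109 further *Col9a1* UMIs lay in the 64 Control spots that were left out for having fewer than 500 UMIs or fewer than 250 genes.

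*Prg4* was highest at another place. Its 4 highest Control spots had 10, 7, 4 and 3 UMIs and lay within 0.265 mm of the highest one, 2.31 to 2.43 mm from the *Col2a1* peak and 1.84 to 2.27 mm from bone. They too were picked after the maps were seen, and by *Prg4* itself, so a high *Prg4* level around them follows from the choice. In the 21 spots within 0.25 mm, *Prg4* stood at 4.08 per 10000 UMIs against 0.0991 over the section. *Col2a1* stood at 1.28 in them, against 2.69 over the section, which takes in the *Col2a1*-rich spots. Between 2 and 3 mm from the *Col2a1* peak, where the 4 highest *Prg4* spots lay, it was at 1.11 (0.89 to 1.36). In the 21 spots *Acan* had 1 UMI and *Sox9* had none. An adipocyte list took 4.98% of the UMIs there, against 0.439% in bone and 0.299% in the *Col2a1* patch. Its members included *Car3* at 162 and *Cfd* (adipsin) at 155 per 10000. In the Loaded section no spot had more than 1 *Prg4* UMI, so no such place could be located.

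In the listed bone spots little of this RNA remained in either section. The 10 genes together had 65 UMIs in 42 of 131 Control bone spots, 1.17 per 10000 UMIs (0.90 to 1.49), and 62 UMIs in 45 of 146 Loaded bone spots, 1.52 (1.16 to 1.94). That was 1.67% of the 10 genes' UMIs in the Control section and 21.5% in the Loaded section. Control bone had UMIs of 7 of the 10 genes and Loaded bone of 8. *Col10a1* and *Matn3* had 0 UMIs in both and *Hapln1* 0 in Control and 1 in Loaded. At 3 UMIs, the limit set for a 0, the level would be 0.0538 per 10000 for Control bone and 0.0733 for Loaded bone, and 2.29% and 2.05% of the spots would have a UMI.

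Each collagen but *Col10a1* had some UMIs in both bone regions. *Col2a1* had 20 UMIs in 18 Control bone spots, 0.359 per 10000 (0.219 to 0.554), and 33 UMIs in 27 Loaded bone spots, 0.807 (0.555 to 1.13). *Col9a1* had 6 and 5 UMIs, *Col9a2* 3 and 4, and *Col9a3* 2 and 1. No bone spot came near the patch, where the highest spot had 201 *Col2a1* UMIs. *Sox9* had 6 UMIs in each bone region and *Prg4* 5 in each.

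*Acan* had 23 UMIs in 14 Control bone spots, 0.413 per 10000 (0.262 to 0.619), and 7 UMIs in 5 Loaded bone spots, 0.171 (0.0688 to 0.353). Bone thus held 22.1% of Control *Acan* UMIs and 26.9% of Loaded ones, against 0.827% and 27.3% for *Col2a1*, so the shares of these genes were far apart in Control and close in Loaded.

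**Figure D3:**
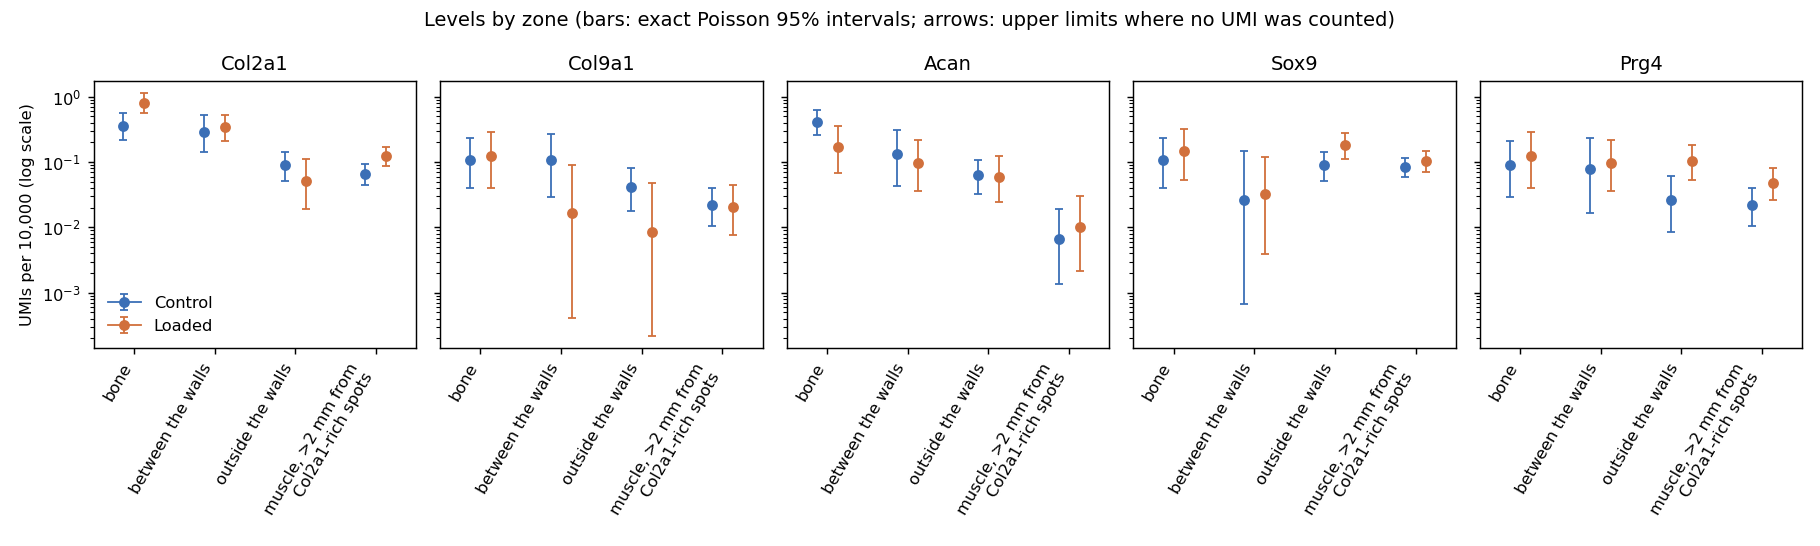
Levels of *Col2a1*, *Col9a1*, *Acan*, *Sox9* and *Prg4* (UMIs per 10000 UMIs, log axis) in bone, between the bone walls, outside the walls along their length, and in muscle spots over 2 mm from the *Col2a1*-rich spots (in Loaded, all muscle spots), with exact Poisson 95% intervals for Control in blue and Loaded in orange. *Acan* is at 0.413 in Control bone and 0.132 between the Control walls, while *Col2a1* is at 0.359 and 0.291.

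Whether these levels stood above those of the surrounding tissue depended on what surrounded the bone. Against all other spots of the section, *Col2a1* in bone was at -2.99 on the log2 scale in Control (-3.70 to -2.36) and at 2.04 in Loaded (1.42 to 2.64). *Col9a1* was at -3.48 (-4.93 to -2.36) and 2.32 (0.45 to 3.96). *Acan* was at 2.10 (1.37 to 2.79) and 2.02 (0.53 to 3.33), the same side in both. Of the genes with at least 10 UMIs in the section, 1 of 9 was 2-fold or more higher in Control bone, against a background of 28%, and 3 of 9 were 2-fold or more lower, against 2.76%. In Loaded 4 of 7 were higher, against 16.6%, and none lower, against 4.99%. The median log2 ratio of these genes was 0.22 in Control and 2.02 in Loaded, against 0.52 and 0.29 over all genes tested. *Hapln1* and *Matn3*, with 0 UMIs in Control bone, entered at the upper bound of 0.70 that 3 UMIs set. That bound lies above the Control median, which may therefore be too high. The shares of 28% and 16.6% over all genes may likewise include genes with 0 UMIs in bone, set to 3 and counted as higher. They were not recounted without such genes. With a minimum of 20 UMIs the shares were 21.8% in Control and 10.6% in Loaded.

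The Control values depended on how much of the ground around the patch was in their denominator. Without the *Col2a1*-rich spots alone, Control *Col2a1* in bone was still lower than the rest, at -1.44 (-2.16 to -0.81), as was *Col9a1* at -2.62 (-4.07 to -1.48). Comparators set away from the *Col2a1*-rich spots were added after the maps were seen. Their rule leaves out ground high in *Col2a1*, which favours a higher ratio for bone. Against muscle spots over 1 mm from any *Col2a1*-rich spot, Control *Col2a1* in bone was at 1.03 (0.25 to 1.74) and *Col9a1* at 0.77 (-0.78 to 2.04). Against muscle spots over 2 mm away, Control *Col2a1* in bone was at 2.45 (1.56 to 3.32), *Col9a1* at 2.30 (0.56 to 3.91) and *Acan* at 5.98 (4.25 to 8.36). In Loaded, against all muscle spots, they were at 2.71 (1.98 to 3.43), 2.57 and 4.06 (1.93 to 6.64). *Sox9* in bone, from 6 UMIs in each section, could not be told from muscle. It was at 0.38 (-1.16 to 1.63) in Control and 0.51 (-1.04 to 1.80) in Loaded. Muscle over 1 mm from the rich spots held 51.8% of all Control *Sox9* UMIs and Loaded muscle 62.5% of the Loaded ones. Muscle held most UMIs of all genes too. All Control muscle had 58 of 83 *Sox9* UMIs and 6969828 of 8984212 UMIs in all, and Loaded muscle 30 of 48 and 2918790 of 4908807. These shares therefore do not set *Sox9* apart.

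Counted by spots, with each spot thinned to 1000 UMIs, 3.82% of Control bone spots had a *Col2a1* UMI (1.25 to 8.68). Of the muscle spots over 1 mm from any *Col2a1*-rich spot, 3.43% did. In Loaded, 6.87% of bone spots did (3.19 to 12.6), against 2.11% of muscle spots (1.16 to 3.51). For *Acan* the shares were 4.58% of Control bone spots (1.70 to 9.70) and 0 of 613 of those muscle spots, and 2.29% of Loaded bone spots and 0.151% of Loaded muscle spots. At this depth the share of Control bone spots with *Col2a1* could not be told from that of this muscle. Thinned to 500 UMIs, the shares were 5.34% (2.18 to 10.7) and 2.34% (1.32 to 3.84), with overlapping intervals, while by summed UMIs bone over the same muscle stood at 1.03 on the log2 scale (0.25 to 1.74). Each thinning was a separate random draw, so the shares vary with the draw. At 1000 UMIs 5 Control bone spots had *Col2a1*, and at 500 UMIs 7 did. Without thinning, the *Col2a1* shares were 13.7% of Control bone and 11.6% of muscle, 18.5% of Loaded bone and 4.69% of muscle, and the *Acan* shares 10.7% and 3.42% of bone. Median depths before thinning were 3478 UMIs in Control bone and 5608 in that muscle, and 2769 and 3548 in Loaded, where 15 bone spots were too shallow to thin.

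The spots that carried *Col2a1* and *Acan* in Control bone differed in muscle share and in *Col1a1*. Control bone spots with a *Col2a1* UMI had a muscle share of 27.1%, against 14.8% in those without one, and *Col1a1*, the main bone collagen, at 30.0 against 84.1 per 10000. Spots with an *Acan* UMI had a muscle share of 4.73% against 18.8%, and *Col1a1* at 220 against 52.9. In Loaded bone the spots with and without *Col2a1* were alike in both, with muscle shares of 9.08% and 8.88% and *Col1a1* at 207 and 208 per 10000. One bone spot in each section had UMIs of both *Col2a1* and *Acan*. Spots with a UMI were also the deeper ones. In Control bone the median was 4093.5 UMIs with *Col2a1* and 3312 without, and 5062.5 with *Acan* and 3287 without. In Loaded bone it was 2944 with *Col2a1* and 2564 without. The part of depth in these differences was not tested.

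*Acan* in Control bone was local. The bone region was cut into 4 blocks, 2 ends of 2 walls, numbered within a section and not matched between sections. Wall 1, end 1 of Control held 22 of the 23 *Acan* UMIs, all 6 *Col9a1*, all 3 *Col9a2* and 5 of 6 *Sox9*, but 2 of the 20 *Col2a1*. The same block held 535 of the 671 *Comp* UMIs in Control bone. The highest *Acan* spot of the section, with 6 UMIs, lay 0.1 mm outside this bone, and bone spots with 4, 3, 3 and 2 lay within 0.2 mm of it. These spots were named after their values were seen. In the 5 Control bone spots with at least 2 *Acan* UMIs, *Comp* stood at 71.1 per 10000, against 7.67 in bone spots without *Acan*, and *Bglap* had 0 UMIs.

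*Col2a1* was at the other wall in Control, with 16 of 20 UMIs in wall 2, 11 of them at end 2. By level the order of the ends was the other way, with 1.29 per 10000 UMIs at wall 2, end 1 and 0.469 at end 2, since end 2 was the deeper block. In Loaded bone *Acan* had 2 UMIs at wall 1, end 1 and 5 at wall 2, end 1, *Col2a1* had 3, 6, 6 and 18 UMIs over the 4 blocks, and *Comp* had 85, 48, 40 and 49.

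**Figure D4:**
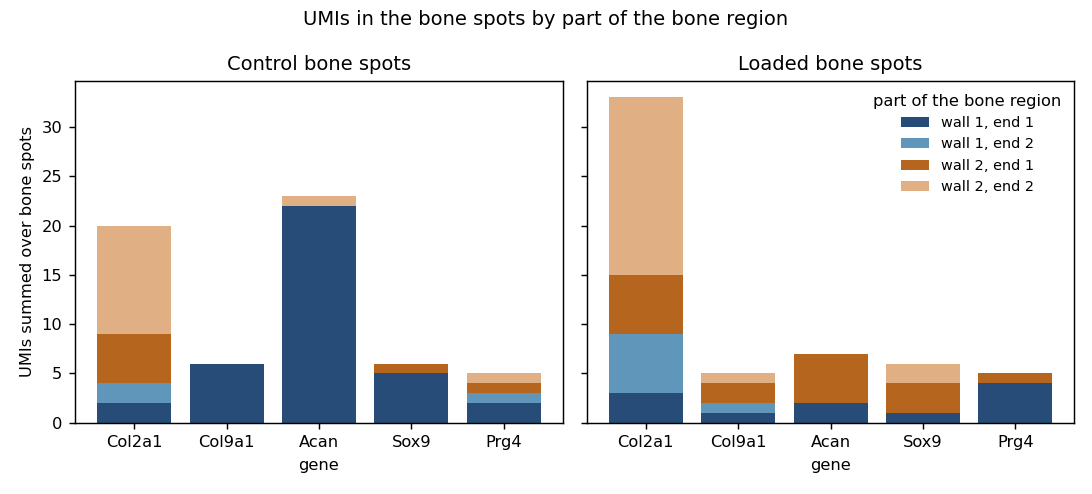
UMIs of *Col2a1*, *Col9a1*, *Acan*, *Sox9* and *Prg4*, stacked over the 4 blocks of the bone region (wall and end, numbered within a section), Control and Loaded. Control *Acan* has 22 of 23 UMIs in wall 1, end 1, and *Col2a1* has 11 of 20 in wall 2, end 2.

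Loaded bone was then set against Control bone, scaled by summed scran size factors. *Col2a1* was higher in Loaded, at 1.05 on the log2 scale (0.21 to 1.93), and *Acan* was lower, at -1.39 (-2.85 to -0.12). *Col9a1* was at 0.06 (-1.99 to 2.04), *Sox9* at 0.33 (-1.58 to 2.23) and *Prg4* at 0.33 (-1.79 to 2.45), and the 10 genes summed were at 0.26 (-0.27 to 0.78). Of the 5 genes with at least 10 UMIs over both bone regions, 1 was 2-fold or more higher, against a background of 10.6% of 10003 genes, and 1 was 2-fold or more lower, against 9.81%. Their median log2 ratio was 0.33, against 0.02 over all those genes.

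Both differences depended on which bone spots were taken. Without wall 1, end 1 of both sections, 1 Control *Acan* UMI was left and the *Acan* ratio stood at 2.64 (-0.52 to 8.20), on the other side of 0. With each block left out in turn the *Col2a1* ratio stayed between 0.85 and 1.38, but its interval reached -0.06 without wall 1, end 2 and -0.40 without wall 2, end 2. In bone spots with a muscle share below 5%, *Acan* was at -2.54 (-4.97 to -0.72) and *Col2a1* at 1.37 (-1.12 to 4.71).

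**Figure D5:**
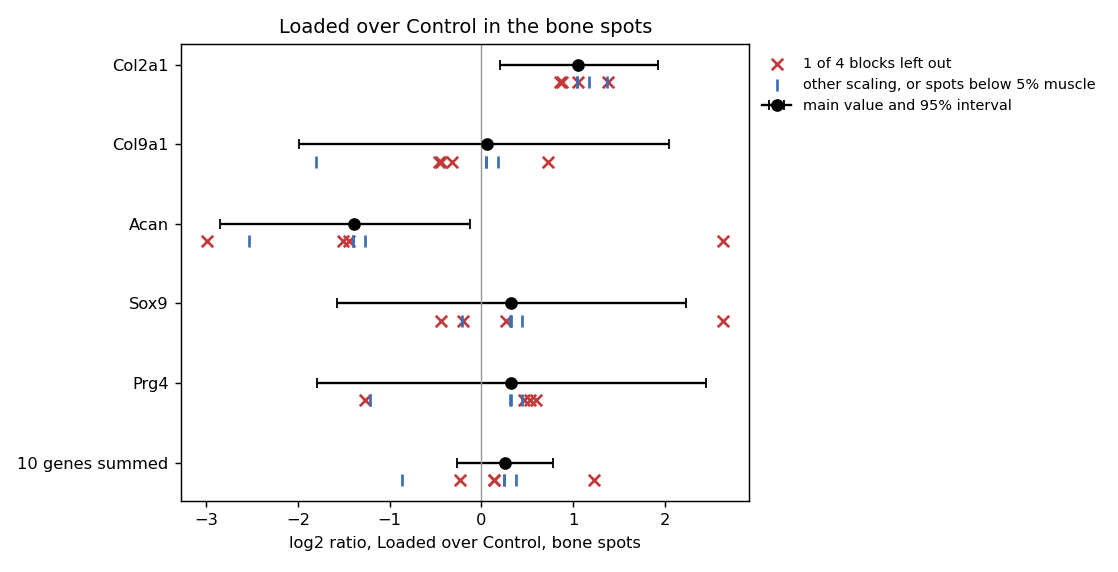
Log2 ratio of Loaded over Control in the bone spots for the 5 genes with at least 10 UMIs there and for the 10 genes summed, with 95% intervals (counting error only), and below each the values with 1 of 4 blocks left out (crosses) and with another scaling or spots below 5% muscle (ticks). *Col2a1* lies at 1.05 and *Acan* at -1.39, with a cross at 2.64 for *Acan*, and the intervals of *Col9a1*, *Sox9* and *Prg4* cross 0.

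The lists of other cartilage genes differed in direction in the same comparison of bone. Over all 10003 genes, 10.6% were 2-fold or more higher in Loaded and 9.81% lower, the background for the counts below. Of 18 other cartilage matrix genes, 8 had at least 10 UMIs, of which 1 was 2-fold or more higher in Loaded and 5 were lower, with a median log2 ratio of -1.28. *Chad*, with 144 Control and 17 Loaded UMIs, was at -2.75, *Cilp*, a cartilage intermediate layer protein, at -1.39 and *Comp* at -1.27, while *Col11a2*, with 49 and 283 UMIs, was at 2.86. Of 7 chondrocyte regulators 2 were higher and 3 lower, with a median of 0.04, *Runx3* at 1.91 and *Pth1r*, the receptor for parathyroid hormone and its related peptide, at 1.67 against *Zbtb20* at -1.41 and *Trps1* at 0.04. Of 6 hypertrophy and matrix breakdown genes 2 were higher and none lower, with a median of 0.26. *Alpl* (alkaline phosphatase) led at 2.60, with *Spp1* (osteopontin) at 1.5, while *Ibsp* was at 0.50 and *Mmp13*, a collagenase, at -0.38. *Alpl* and *Ibsp* are on the osteoblast list too.

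Of the 9 genes for proteoglycan synthesis 3 were higher and 1 lower, with a median of 0.52, *Chsy1* at 1.51 and *Xylt1*, which starts the sugar chains, at 1.09, against *Chpf* at -1.15 and *Ugdh* at -0.47. Genes of the joint surface and synovium had a median of -0.56, with none of 6 higher and 2 lower, and tendon and fibrous genes a median of -0.71, with none of 8 higher and 2 lower, *Thbs4* at -1.58 and *Dcn* (decorin) at -0.91 among them. Beside these, 7 of 8 osteoblast genes were 2-fold or more higher in Loaded bone, with a median of 1.85, and 8 of 9 granulocyte genes, with a median of 1.86. Of the 22 muscle genes 16 were 2-fold or more lower, with a median of -1.19, and erythroid and adipocyte genes had medians of 0.31 and 0.05. The part of these other tissues in the values of the 10 genes was not tested, and fewer cells of a type and less RNA per cell cannot be told apart in a spot.

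The genes whose pattern over spots was most like the sum of the 10 without *Prg4* were found by correlation over spots. In Control, over 1898 spots and 10251 genes with at least 50 UMIs, the highest Pearson correlations were 0.52 for *Col1a2*, 0.50 for *Col11a2*, 0.46 for *Cst3* and 0.40 for *Bglap*, followed by *Dmp1*, *Comp*, *Acp5*, *Col5a1*, *Sost* and *Ctsk* between 0.38 and 0.33. In Loaded the highest was 0.21, in sparse counts, and is not read as a finding. All spots of a section share 1 library and the patch, so these values describe the section and carry no test.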

How the data were processed

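Spatial gene expression was measured with 10x Visium for formalin-fixed tissue on 1 Control and 1 Loaded longitudinal femur section, decalcified in EDTA. The authors deposited raw UMI counts per gene and spot, with spot positions, and their processing notes name Space Ranger 2.0.0, R 4.3.1 and the build mm10. Counting with probes of a fixed set means that a gene's UMIs depend on its probes. Bone spots were the barcodes the study lists. The 2 sections share 557 barcodes, which name grid positions and not cells.

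Here, spots with at least 500 UMIs and 250 genes were kept, which left out 64 Control and 5 Loaded spots and no bone spot. Muscle spots had at least 10% of UMIs in 22 muscle genes. UMIs were summed over regions, and ratios were scaled by total UMIs or, in bone, by summed size factors from scran 1.30.0 in R 4.3.3. Genes with at least 10 UMIs in the compared regions were counted, and a ratio against 0 was set against 3 UMIs. A spot's share was taken after random thinning to 1000 UMIs. Likeness was the Pearson correlation of log2(1 + UMIs per 10000). Gene coordinates are GRCm38. Python 3.11.15, numpy 2.4.6, scipy 1.17.1, pandas 2.3.3 and matplotlib 3.10.9 were used, and the ratio and interval functions were tested on simulated data.

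All 10 genes are named. From every other list, at most the 4 genes with the most UMIs over both bone regions are named, where they had at least 10, and the 10 genes most like the sum. The Col9a1 spots at the grid's edge, the highest Acan spots, the Prg4 spots and the genes named there were chosen after their values were seen. The genes, lists and tests were chosen with earlier results of these data known. Alternatives were other scalings (total UMIs, edgeR 4.0.16 TMM factors), other spots and comparators, other minimum counts and other thinning. With 1 section per group there is no replicate error and no p-value.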

Additional observations from a re-analysis of the deposited data

Results flagged for a closer look

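Of the 10 genes, *Col2a1* and *Col9a1* lay on opposite sides of 0 in the 2 sections when bone was set against the rest of the section. *Col2a1* was at -2.99 on the log2 scale in Control and 2.04 in Loaded, and *Col9a1* at -3.48 and 2.32. The difference between the sections was not tested, since each has 1 mouse. Against muscle spots over 2 mm from the *Col2a1*-rich spots, the Control values were 2.45 and 2.30, on the same side as the Loaded ones. That comparator leaves out ground high in *Col2a1* by its rule, which favours a higher ratio for bone. Against muscle over 1 mm away the Control values were 1.03 and 0.77, and the interval for *Col9a1* held 0 (-0.78 to 2.04).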

How the results depend on the processing

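No paired analysis was possible because each group is 1 section, and no replicate could be left out. Among values for single genes, 116 alternatives left a value within its interval and 33 moved it further. Another 7 turned the direction of a value whose interval had lain clear of 0. Values whose interval held 0 also changed sign under some alternatives and are not among the 7. *Col9a3* in Control bone over the rest, for one, went from -1.23 to 1.64 against muscle over 1 mm from the *Col2a1*-rich spots. *Acan* in bone, Loaded over Control, went from -1.39 to 2.64 without wall 1, end 1, where 1 Control UMI was left. Control bone over the rest of the section turned with comparators added after seeing the data, which leave out ground high in *Col2a1* by rule. They were muscle over 1 mm, muscle over 2 mm and all spots over 1 mm from the *Col2a1*-rich spots. Against them *Col2a1* turned to 1.03, 2.45 and 0.77, and *Col9a1* to 0.77, 2.30 and 0.53. For the 10 genes summed, Control bone over the rest of the section went from -1.96 to 1.62, 2.46 and 1.26 with those comparators. It went to -1.12 with all muscle, a class that takes in 32 of the 67 *Col2a1*-rich spots. Without the rich spots it stood at -0.78, and with scran factors at -2.51. In Loaded it went from 1.59 to 2.10 with muscle. Loaded over Control, the sum in bone went from 0.26 to -0.86 in spots below 5% muscle and to 1.23 without wall 1, end 1, and over the section from -2.88 to -3.24 with scran factors and -1.73 without the rich spots. With a minimum of 20 UMIs, 1.39% of all genes were 2-fold lower over the section, and 10.6% were higher in Loaded bone over the rest, or 26.1% with a minimum of 5. *Col2a1*-rich spots numbered 130 in Control and 3 in Loaded with a minimum of 3 UMIs, and 28 in Control with 10. Bone spots with any of the 10 genes, 12.2% in both sections, came to 6.87% of Control ones thinned to 500 UMIs, and to 32.1% and 30.8% unthinned. Dropping the filter on spots left the bone values as they were, since no bone spot was dropped. The causes of the other moves were not tested. The depth in bone, 5 to 33 UMIs in a section for each gene compared there, limits these ratios.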
